A study of Rattus norvegicus with 60 samples.

Results

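The interleukin-1 (IL-1) genes described here were measured in lung RNA of male Fischer 344 rats (F344/DuCrl), 3 months old at purchase, that had breathed multi-walled carbon nanotubes (MWCNT) or filtered air. They are 10 genes chosen by name for their place in the pathway, of 30045 rows in the deposited count table. Earlier results of these data were known when they were chosen. Il1a, Il1b, Il18 and Il33 encode the ligands, Il1rn the soluble receptor antagonist, Il1r1 and Il1rl1 the receptors, and Nlrp3, Pycard and Casp1 the inflammasome. All 10 passed the filter on low counts.

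MWCNT are fibrous carbon particles. Exposure took place in whole-body chambers for 6 hours a day over 3 days, and lungs were taken 1 day later. Groups MWCNT_011, MWCNT_022, MWCNT_045, MWCNT_090 and MWCNT_180 received cumulative doses of 11.25, 22.5, 45, 90 and 180 mg/m3, and each had its own air group (air_011, air_022, air_045, air_090 and air_180) run at the same time. These pairs are called sets 011, 022, 045, 090 and 180. The doses were given in separate runs, so an effect of dose and an effect of the run cannot be told apart between sets. Each group began with 6 rats. The labels mark 7 of 60 libraries as outliers, and the 53 others were analysed, which left 5 rats in MWCNT_011 and MWCNT_180, 4 in MWCNT_090, 3 in air_045 and 6 in each other group.

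IL-1 signalling is an early alarm of tissue injury. IL-1α and IL-33 are made as proteins that can act when released by damaged cells, whereas IL-1β and IL-18 are made as inactive precursors that caspase-1 cuts after the sensor NLRP3 and the adaptor ASC (the product of Pycard) have assembled an inflammasome. IL-1α and IL-1β act through the receptor IL-1R1, which the antagonist IL-1RA (Il1rn) occupies without signalling, and IL-33 acts through ST2 (Il1rl1). In the lung, macrophages and neutrophils are known sources of IL-1β, and endothelial and epithelial cells hold IL-33 in the nucleus. Messenger RNA was measured here, so the cutting and release of these proteins were not seen.

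Total counts of the 53 libraries ran from 8099154 to 16176867, and no member fell below 92 reads in any of them. Levels are counts scaled to 1000000 counts per library (CPM). Among the analysed libraries, markers of liver, which should be absent, summed to between 0.00976% and 0.0365% of counts, and markers of alveolar type 2 cells, the surfactant-making cells of the lung, to between 2.02% and 3.16%. Among the 7 libraries with the outlier label, liver markers summed to between 0.014% and 23.6% and alveolar type 2 markers to between 0.0113% and 3.38%. Replicate 2 of air_022 and replicate 5 of MWCNT_022 stood apart. On the first component of the deviations from group means, which held 14% of the variance, they had loadings of 0.547 and 0.516, and the next had -0.241. Casp1, Pycard and Il1b had correlations of 0.782, 0.794 and 0.599 with that component, and Nlrp3 and Il1r1 of -0.595 and -0.645, over the 53 libraries. In set 022, the counts of members called and the results of Il1b, Il1rn, Il1r1, Nlrp3, Casp1 and Pycard are therefore given with and without both. Other results of set 022, with those of the gene lists and cell markers, include both.

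At the highest dose, the antagonist Il1rn and the cytokine Il1b were each about 2 times as high in MWCNT as in air lungs. The sensor Nlrp3 was 1.4 times, Il1a 1.23 times and the receptor Il1r1 1.17 times as high, and Il33 was at 0.833 of its level in air. Il18, Il1rl1, Casp1 and Pycard did not pass the test at any dose. A gene was called where the two-sided quasi-likelihood test of edgeR gave a p under 0.05 after Benjamini-Hochberg adjustment. By this rule, 5 of the 10 genes rose and 1 fell in set 180, where 12.0% of all 15995 genes tested rose and 10.9% fell. In set 090, 3 rose and 0 fell, against 6.82% and 4.28% of all genes. In set 045, 1 rose and 0 fell, against 3.32% and 2.09%. In set 022, 2 rose and 0 fell, against 5.18% and 1.62%, and without the pair of libraries that stood apart these counts were also 2 and 0. In set 011, 0 of 10 were called by edgeR, against 0.0250% of all genes. There, 0 had an unadjusted p under 0.05, and DESeq2 and limma also called 0. The median log2 fold change of the 10 genes was 0.21 in set 180, 0.18 in set 090, 0.05 in set 045, 0.03 in set 022 and -0.04 in set 011, beside medians of all genes between -0.01 and 0.01.

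**Figure D1:**
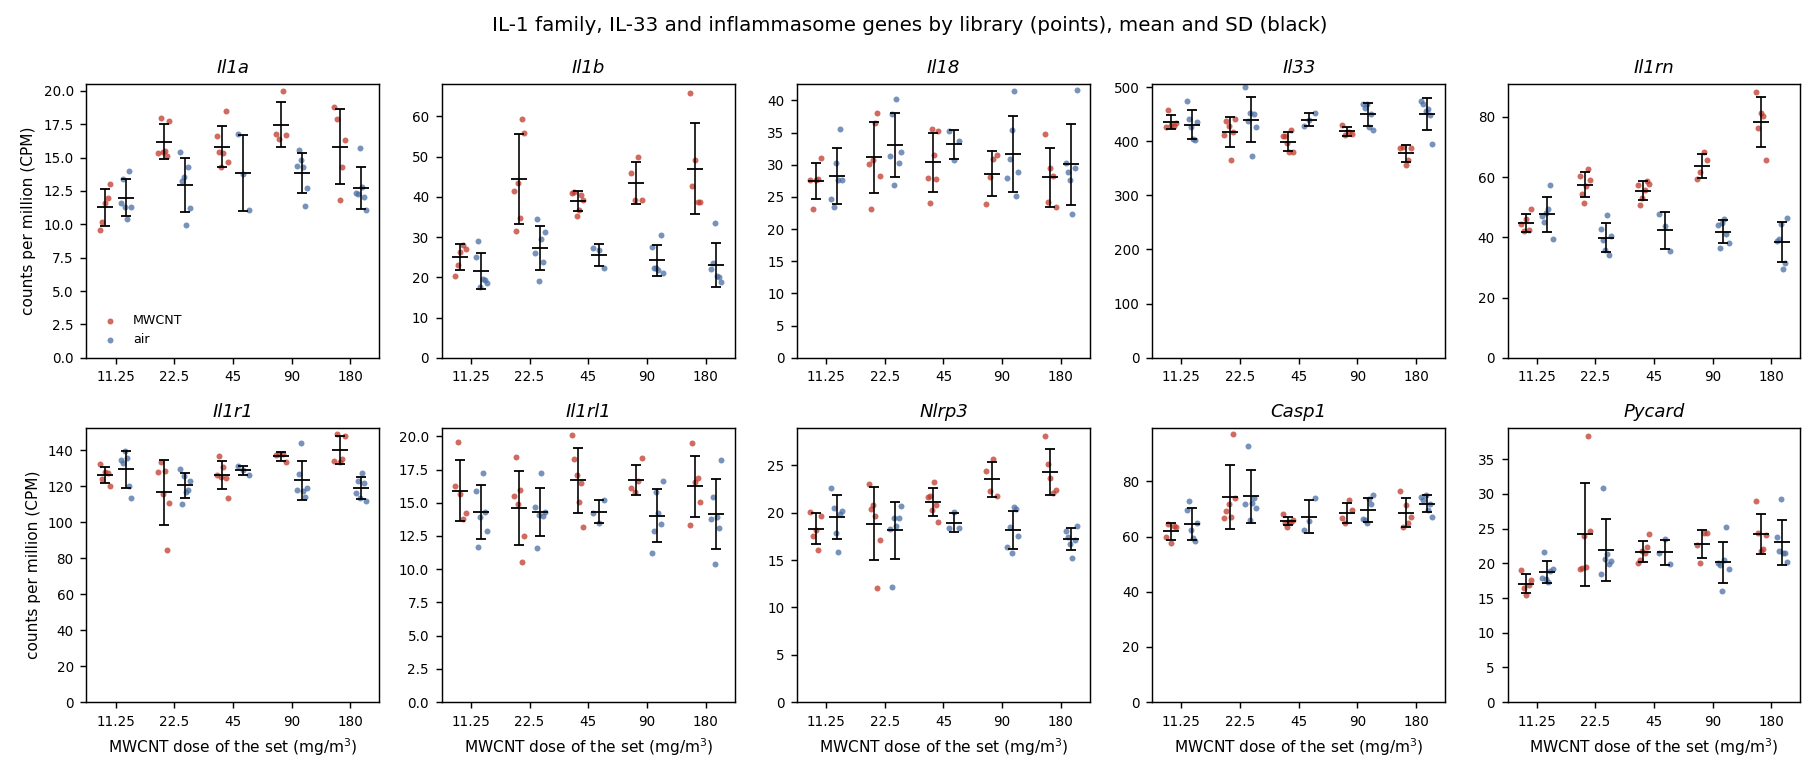
CPM (y axis, from 0) of the 10 genes in each of the 53 libraries (points), by the dose of the set (x axis, mg/m3), with MWCNT libraries in red left of the air libraries of the same set in blue. Black bars are the mean and SD. Il1rn and Il1b of the MWCNT lungs lie above those of the air lungs without overlap at 180 mg/m3, and Il33 lies below.

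Il1b, the IL-1β precursor, had 65.7, 42.6, 49.2, 38.7 and 38.7 CPM in the MWCNT lungs of set 180, against a lowest, median and highest of 18.8, 21.2 and 33.6 CPM in the air lungs. The groups did not overlap, although air_180 replicate 3, at 33.6 CPM, lay well above the next air rat at 23.5 CPM. The log2 fold change was 1.01 ± 0.16 (SE), adjusted p = 1.77e-06. In set 090 the 4 MWCNT lungs had 45.9, 39.1, 49.8 and 39.2 CPM, against 21.1, 22.4 and 30.4 CPM (lowest, median, highest) in air. Here too every MWCNT rat was above every air rat, and the log2 fold change was 0.81 ± 0.16 (adjusted p = 4.05e-04). Shares of all genes with every MWCNT library above the highest air library were 7.80% in set 180 and 8.82% in set 090.

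In set 045 the MWCNT lungs had 35.3, 39.8 and 41.1 CPM of Il1b (lowest, median, highest), against 27.2, 26.8 and 22.3 CPM in the 3 air lungs. There was no overlap, as for 9.23% of all genes, but the log2 fold change of 0.58 ± 0.18 missed the threshold (adjusted p = 0.0511). DESeq2 and limma voom gave adjusted p of 0.0271 and 0.00759 for the same comparison. In set 022 the MWCNT lungs had 31.6, 42.5 and 59.3 CPM, against 19.1, 27.7 and 34.4 CPM in air, and the lowest MWCNT rat lay within the air range. The log2 fold change was 0.69 ± 0.15 (adjusted p = 0.00119), and 0.66 (adjusted p = 0.00365) without the libraries that stood apart. Fitting set 022 alone gave an adjusted p of 0.0603. In set 011 the MWCNT lungs had 20.3, 23, 26.3, 28 and 27.1 CPM, against 17.5, 19.4 and 28.9 CPM in air. These ranges overlapped in full, and the log2 fold change was 0.21 with a 95% interval of -0.11 to 0.54.

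Il1a, the IL-1α precursor, moved less. It had 18.8, 17.9, 11.8, 14.3 and 16.3 CPM in MWCNT_180, against 11, 12.3 and 15.7 CPM (lowest, median, highest) in air_180. With 3 of 5 MWCNT rats above the air range, the log2 fold change was 0.30 ± 0.11 (adjusted p = 0.0412). This call lay close to the threshold. With 1 rat left out at a time, the log2 fold change was between 0.23 and 0.39. Leaving out any of replicates 2, 3 and 6 of MWCNT_180 or 1, 2, 4, 5 and 6 of air_180 gave an adjusted p between 0.0592 and 0.164, and limma voom gave 0.0589. Log2 fold changes of 0.31 in sets 022 and 090 did not pass (adjusted p = 0.0554 and 0.0756), although the 4 MWCNT_090 rats, at 16.8, 16.4, 20 and 16.7 CPM, were all above the highest air_090 rat at 15.5 CPM. Without replicate 1 or replicate 2 of air_022, the adjusted p in set 022 was 0.0316 or 0.0355. Values in the other sets were 0.16 ± 0.13 in set 045 and -0.09 ± 0.11 in set 011.

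Il33, the nuclear alarmin, was the only member to fall. It had 387, 390, 357, 366 and 387 CPM in MWCNT_180, against 395, 457 and 475 CPM (lowest, median, highest) in air_180. No MWCNT rat reached the lowest air rat, replicate 6, which itself lay apart from the next air rat at 448 CPM. Across all genes, 5.16% had every MWCNT library of this set below the lowest air library. The log2 fold change was -0.26 ± 0.05 (adjusted p = 5.72e-05). In set 045 the MWCNT lungs had 380, 403 and 421 CPM, against 427, 439 and 452 CPM in the 3 air lungs, also without overlap (3.84% of all genes were below in this way). The log2 fold change there, -0.17 ± 0.06, did not pass (adjusted p = 0.0775), nor did -0.14 ± 0.05 in set 090 (adjusted p = 0.0829), -0.09 ± 0.05 in set 022 (adjusted p = 0.297) or 0.02 ± 0.05 in set 011. Limma voom gave adjusted p of 0.0253 and 0.0185 in sets 045 and 090.

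Il18, the other caspase-1 substrate, had log2 fold changes between -0.18 and -0.03 in the 5 sets, and none passed. In set 180 it had 34.8, 24.3, 29.5, 28.2 and 23.5 CPM in MWCNT lungs, against 22.3, 29.2 and 41.6 CPM (lowest, median, highest) in air lungs. The MWCNT values lay inside the air range. The 95% interval of its log2 fold change, -0.40 to 0.17, still allows a fall or a small rise.

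Il1rn, which encodes the antagonist, was the member with the smallest adjusted p in sets 022, 045, 090 and 180. It had 88.2, 76.2, 81.2, 80.2 and 65.8 CPM in MWCNT_180, against 29.6, 39.2 and 46.3 CPM (lowest, median, highest) in air_180. The lowest MWCNT rat stood well clear of the highest air rat, and the log2 fold change was 1.02 ± 0.09 (adjusted p = 3.65e-12). In set 090 its 59.5, 61.6, 68.5 and 65.6 CPM in MWCNT lungs stood against 36.6, 42.6 and 46.2 CPM in air lungs (log2 fold change 0.58 ± 0.10, adjusted p = 2.58e-05). In set 045 the MWCNT lungs had 50.8, 56.5 and 58.6 CPM, against 47.6, 43.9 and 35.6 CPM in the 3 air lungs. These did not overlap, but the call (log2 fold change 0.36 ± 0.11, adjusted p = 0.0402) was lost without either of replicates 2 and 4 of air_045 or any of replicates 1, 4, 5 and 6 of MWCNT_045. The adjusted p was then between 0.0557 and 0.353.

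Set 022 was the lowest dose at which Il1rn rose. Its MWCNT lungs had 51.4, 58 and 62.7 CPM, against 34.1, 39.7 and 47.3 CPM (lowest, median, highest) in air. This was without overlap, as for 2.15% of all genes, and the log2 fold change was 0.52 ± 0.09 (adjusted p = 4.66e-05). It was 0.48 (adjusted p = 7.11e-04) without the libraries that stood apart. In set 011 the MWCNT lungs had 44.3, 42.1, 46.2, 42.3 and 49.3 CPM, against 39.5, 47.6 and 57.4 CPM in air. All MWCNT values lay inside the air range, and the log2 fold change was -0.08, with a 95% interval of -0.27 to 0.11. Counts are per gene, so the secreted and intracellular forms of the antagonist were not separated.

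Because antagonist and agonist compete for IL-1R1, their transcripts were set side by side within each library, as a description. The mean log2 ratio of Il1rn to Il1b CPM was 0.76 ± 0.23 in MWCNT_180 (SD, n = 5) and 0.75 ± 0.31 in air_180 (SD, n = 6). In the sets of lower dose it was 0.85 ± 0.19 in MWCNT_011 and 1.16 ± 0.36 in air_011, 0.41 ± 0.32 and 0.56 ± 0.26 in MWCNT_022 and air_022, 0.51 ± 0.11 and 0.73 ± 0.07 in MWCNT_045 and air_045, and 0.56 ± 0.17 and 0.80 ± 0.24 in MWCNT_090 and air_090. Thus in set 180, where both genes were highest, the ratio in MWCNT lungs was within the spread of air lungs. In every other set its mean was lower in MWCNT than in air lungs. The ranges overlapped except in set 045, with a highest of 0.597 in MWCNT_045 and a lowest of 0.677 in the 3 rats of air_045. Against Il1a, the ratio was 2.32 ± 0.32 in MWCNT_180 and 1.59 ± 0.30 in air_180. Its lowest value in MWCNT_180 was 2.01, and 1 of the air rats reached 2.07. At lower doses the means lay closer, at 2.0 ± 0.15 in MWCNT_011 and 1.99 ± 0.18 in air_011, 1.83 ± 0.17 and 1.63 ± 0.36 in MWCNT_022 and air_022, 1.82 ± 0.12 and 1.62 ± 0.10 in MWCNT_045 and air_045, and 1.87 ± 0.09 and 1.60 ± 0.20 in MWCNT_090 and air_090. The lengths of the transcripts do not enter these differences between groups, but the ratios themselves do not give relative abundance per molecule.

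**Figure D2:**
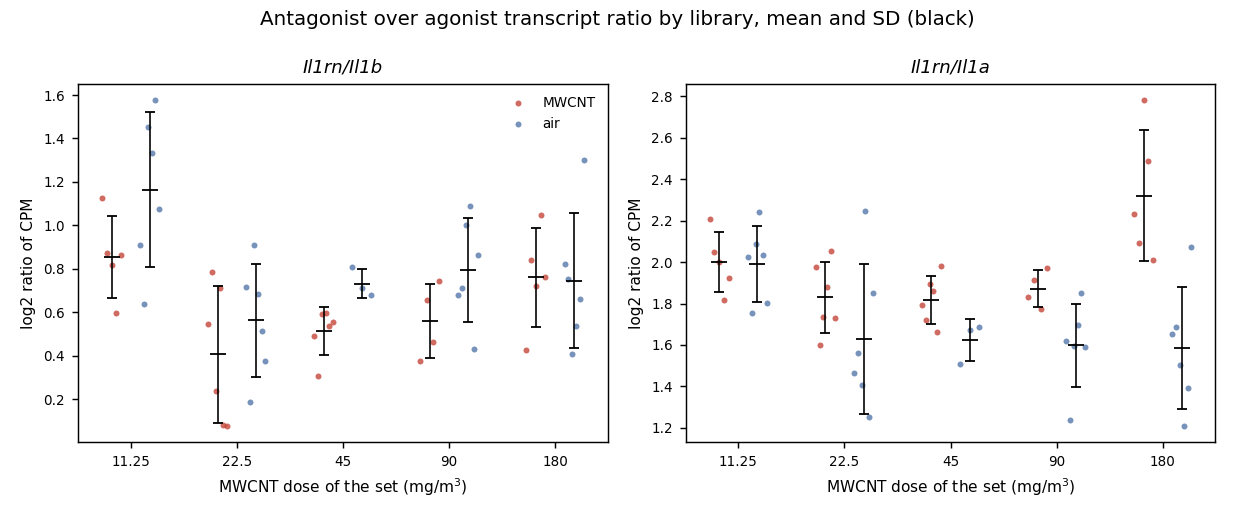
Log2 ratio of Il1rn to Il1b CPM (left) and of Il1rn to Il1a CPM (right) in each library (points), by the dose of the set (x axis, mg/m3), MWCNT in red left of air in blue, with mean and SD in black. At 180 mg/m3 the Il1rn to Il1b ratios of both groups share 1 range, whereas the Il1rn to Il1a ratio averages 2.32 in MWCNT lungs and 1.59 in air lungs.

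Of the receptors, Il1r1 had 134.1, 148.97, 133.3, 135.3 and 147.7 CPM in MWCNT_180, against 111.7, 118.9 and 127.4 CPM (lowest, median, highest) in air_180. The groups did not overlap, and the log2 fold change was 0.23 ± 0.06 (adjusted p = 0.00632). In the other sets its values were 0.11 ± 0.07 in set 090, -0.06 ± 0.07 in set 045, -0.06 ± 0.06 in set 022 and -0.03 ± 0.06 in set 011, none of which passed. Without the libraries that stood apart, the value in set 022 was -0.0091, which also did not pass. Il1rl1, which encodes both the ST2 receptor and its soluble decoy form, had log2 fold changes between 0.02 and 0.22 in the 5 sets, none of which passed. In set 180 it had 13.3, 19.5, 16.6, 16.8 and 15 CPM in MWCNT lungs, against 10.4, 13.9 and 18.2 CPM in air lungs, and these overlapped. The 95% interval of its log2 fold change there was -0.06 to 0.44.

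Among the inflammasome genes, Nlrp3 rose at the upper doses. The sensor had 28.2, 25.1, 23.7, 22.1 and 22.4 CPM in MWCNT_180, against 15.3, 17.3 and 18.6 CPM (lowest, median, highest) in air_180, with no overlap. Its log2 fold change was 0.48 ± 0.10 (adjusted p = 3.41e-04). In set 090 it had 24.4, 22.3, 25.7 and 21.8 CPM in MWCNT lungs, against 15.7, 18 and 20.6 CPM in air lungs, again apart. The log2 fold change there was 0.34 ± 0.11 (adjusted p = 0.0343), and the call was lost without replicate 1 or 3 of MWCNT_090 or replicate 1, 3 or 6 of air_090, with an adjusted p between 0.062 and 0.142. Values in sets 045, 022 and 011 were 0.13 ± 0.12, 0.04 ± 0.10 and -0.09 ± 0.10.

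The adaptor and the protease of the same complex gave no call. Casp1 had 76.4, 63.4, 71.3, 64.9 and 67 CPM in MWCNT_180, against 67, 72.5 and 75.2 CPM (lowest, median, highest) in air_180. The MWCNT rats lay on both sides of the air range, and the log2 fold change was -0.08, with a 95% interval of -0.24 to 0.08. Pycard had 29, 24.4, 21.8, 22.1 and 24.1 CPM in MWCNT_180, against 20.1, 21.7 and 29.3 CPM in air_180. Those values fell inside the air range, and the interval of the log2 fold change was -0.20 to 0.33. In the other sets the log2 fold changes of Casp1 were between -0.07 and -0.01 and those of Pycard between -0.13 and 0.14. In both libraries that stood apart these genes were high, at 97.3 and 38.3 CPM in MWCNT_022 replicate 5 and 93 and 30.9 CPM in air_022 replicate 2 (Casp1 and Pycard in that order), and Nlrp3 was low, at 12.1 and 12.2 CPM. Without this pair, the log2 fold changes in set 022 were 0.04 for Nlrp3, -0.04 for Casp1 and 0.07 for Pycard, and none passed.

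**Figure D3:**
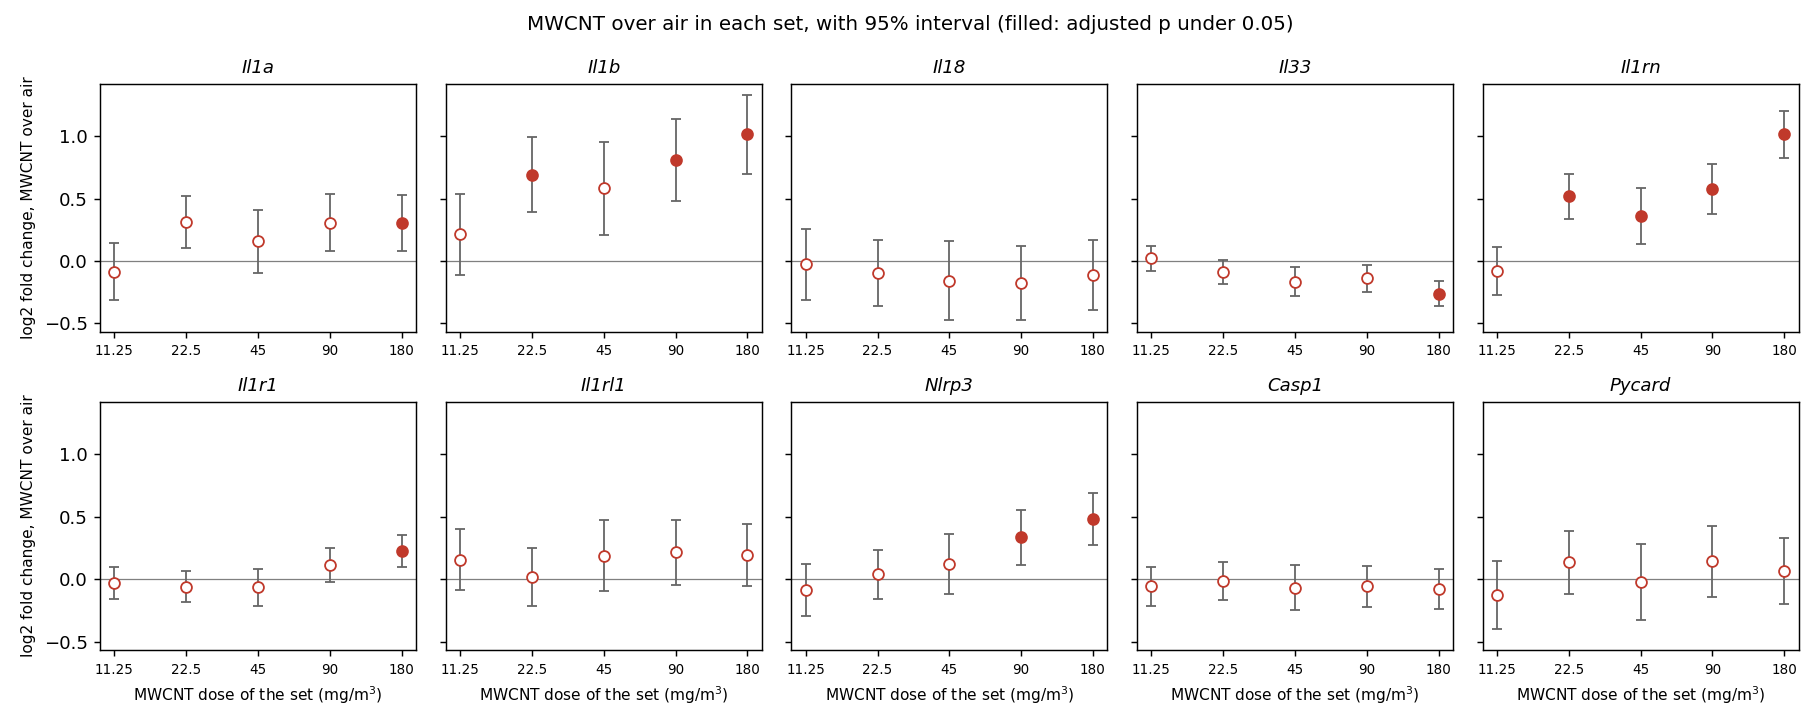
Log2 fold change of MWCNT over air (y axis) in each set, by its dose (x axis, mg/m3), for each of the 10 genes. Bars are 95% intervals, and filled points have an adjusted p under 0.05. Il1rn and Il1b reach about 1 at 180 mg/m3, Nlrp3 0.48 and Il33 -0.26, while the intervals of Il18, Il1rl1, Casp1 and Pycard include 0 in every set.

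The same model tested whether the effect of MWCNT grew or shrank in a straight line with each doubling of the dose. Here 4 of the 10 genes had a positive and 1 a negative slope past the threshold, against 5.58% and 5.07% of all genes. Slopes in log2 units per doubling were 0.23 ± 0.03 for Il1rn (adjusted p = 3.55e-07), 0.17 ± 0.05 for Il1b (0.019), 0.14 ± 0.03 for Nlrp3 (0.0021), 0.07 ± 0.02 for Il1r1 (0.0204) and -0.06 ± 0.02 for Il33 (0.00566). Without set 011, Il1rn alone kept a called slope, and the slopes were 0.17 for Il1rn, 0.12 for Il1b, 0.15 for Nlrp3, 0.10 for Il1r1 and -0.05 for Il33. Without set 180, again with Il1rn alone called, they were 0.18, 0.17, 0.14, 0.045 and -0.05 for the same genes. Either fit has fewer libraries and a narrower range of doses. Leaving out MWCNT_180 replicate 2, the rat with the highest Il1b, gave an adjusted p of 0.0522 for the slope of Il1b.

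The effect differed between the highest and the lowest dose for 4 genes, where 9.97% of all genes differed. The effect in set 180 minus that in set 011 was 1.10 ± 0.13 log2 units for Il1rn (adjusted p = 7.52e-08), 0.80 ± 0.23 for Il1b (0.0152), 0.57 ± 0.15 for Nlrp3 (0.00723) and -0.29 ± 0.07 for Il33 (0.00441). For Il1b this was 0.65 with an adjusted p of 0.0519 without MWCNT_180 replicate 2. Between neighbouring doses, only the effect on Il1rn in set 022 minus that in set 011 passed, at 0.60 ± 0.13 (adjusted p = 0.00941), where 0.781% of all genes differed. It was 0.56 (adjusted p = 0.0235) without the libraries that stood apart. By edgeR, 0 of the 10 genes differed between sets 022 and 045, 045 and 090, or 090 and 180, and DESeq2 and limma also called 0 in each. Of all 15995 genes, edgeR called 0 in each of these 3 comparisons, so the count says nothing particular of the members. The only one of these with an unadjusted p under 0.05 was Il1rn in set 180 minus set 090, at 0.44 ± 0.14 (adjusted p = 0.67).

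A joint test of whether the effect varied over the 5 sets called 2 of the 10 genes, Il1rn (adjusted p = 2.6e-06) and Nlrp3 (adjusted p = 0.0477), where 4.92% of all genes were called. The call of Nlrp3 was lost on leaving out any of 32 of the 53 libraries, with an adjusted p up to 0.1, and was 0.00201 without the pair that stood apart. The 5 air groups were also compared with each other. By edgeR 0 of the 10 genes differed among them, where 7.11% of all genes did. Il1rn had an unadjusted p under 0.05, and limma voom called 2. Mean Il1rn was between 38.4 CPM in air_180 and 47.7 CPM in air_011, and mean Il1b between 21.5 CPM in air_011 and 27.3 CPM in air_022. For each of the 10 genes the highest air mean was at most 1.27 times the lowest.

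Promoter sequences of the 6 genes called in set 180 are printed to show what lies upstream of them. These are the 250 bases before the start of each RefSeq gene in the rat assembly GRCr8, 5′ to 3′ on the strand of the gene. All 10 genes matched an entry, and Il33 had 2 starts. Capitals mark matches, on either strand, to one of 4 motifs. That of C/EBP was TTNNGNAA, where N is any base, and that of NF-κB was GGG and CC with 5 bases of any kind between them. That of AP-1 was TGANTCA, and the element that places the start of transcription, the TATA box, was searched as TATAAA. The C/EBP and NF-κB matches in these windows do not overlap.
Il1b, chr3:137036582-137036831, minus strand: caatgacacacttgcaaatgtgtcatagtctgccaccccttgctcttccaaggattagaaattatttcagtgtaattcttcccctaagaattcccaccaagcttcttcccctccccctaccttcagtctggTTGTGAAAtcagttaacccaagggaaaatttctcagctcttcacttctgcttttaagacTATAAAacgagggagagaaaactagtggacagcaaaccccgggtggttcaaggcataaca
Il1a, chr3:136990018-136990267, minus strand: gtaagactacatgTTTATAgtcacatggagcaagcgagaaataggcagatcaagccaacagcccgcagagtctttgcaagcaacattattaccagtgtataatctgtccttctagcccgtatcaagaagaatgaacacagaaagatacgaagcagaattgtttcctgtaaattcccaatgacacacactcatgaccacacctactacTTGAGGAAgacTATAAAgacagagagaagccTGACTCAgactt
Il1rn, chr3:27520072-27520321, plus strand: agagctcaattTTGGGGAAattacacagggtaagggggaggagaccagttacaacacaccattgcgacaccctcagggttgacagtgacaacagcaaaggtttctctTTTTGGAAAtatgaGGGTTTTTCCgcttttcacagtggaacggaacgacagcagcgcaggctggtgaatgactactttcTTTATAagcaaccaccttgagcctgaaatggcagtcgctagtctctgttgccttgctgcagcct
Il1r1, chr9:50034133-50034382, plus strand: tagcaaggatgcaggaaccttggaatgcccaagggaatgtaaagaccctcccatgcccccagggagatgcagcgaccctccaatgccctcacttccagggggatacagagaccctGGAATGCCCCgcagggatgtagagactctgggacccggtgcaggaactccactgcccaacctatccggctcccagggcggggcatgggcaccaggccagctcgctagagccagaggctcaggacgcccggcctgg
Nlrp3, chr10:44827848-44828097, plus strand: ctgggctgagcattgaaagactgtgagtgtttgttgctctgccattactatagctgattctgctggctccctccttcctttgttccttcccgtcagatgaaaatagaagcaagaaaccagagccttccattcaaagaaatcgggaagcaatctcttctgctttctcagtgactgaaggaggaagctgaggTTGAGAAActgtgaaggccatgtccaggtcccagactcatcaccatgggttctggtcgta
Il33, first start, chr1:237115323-237115572, plus strand: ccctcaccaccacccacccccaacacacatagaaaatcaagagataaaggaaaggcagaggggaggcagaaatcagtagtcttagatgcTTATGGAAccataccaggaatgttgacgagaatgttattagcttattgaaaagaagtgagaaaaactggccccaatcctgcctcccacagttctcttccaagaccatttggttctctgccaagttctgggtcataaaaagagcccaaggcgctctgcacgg
Il33, second start, chr1:237134696-237134945, plus strand: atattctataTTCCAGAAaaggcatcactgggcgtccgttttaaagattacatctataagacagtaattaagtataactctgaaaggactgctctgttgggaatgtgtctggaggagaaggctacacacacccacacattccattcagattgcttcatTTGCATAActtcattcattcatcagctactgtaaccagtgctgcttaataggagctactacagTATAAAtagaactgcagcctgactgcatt

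The Il1b window holds a C/EBP match 119 bases and a TATA match 60 bases before the listed start. That of Il1a holds a C/EBP match at 43 bases, an AP-1 match at 12 bases, a TATA match at 32 bases and another, on the opposite strand, at 237 bases. That of Il1rn holds an NF-κB match, GGGTTTTTCC, at 129 bases, C/EBP matches at 239, 143 and 142 bases, of which the last 2 overlap, and a TATA match on the opposite strand. Il1r1 has 1 NF-κB match, on the opposite strand, at 135 bases. Nlrp3 has 1 C/EBP match, at 60 bases. The first Il33 window has a C/EBP match and the second has 2 and a TATA match at 29 bases. Over the 10 genes, 4 held an NF-κB match, 6 a C/EBP match, 1 an AP-1 match and 5 a TATA match. Among all 33469 promoter windows of the same length, the shares were 42.3%, 37.2%, 6.3% and 12.9%. A match describes letters only. Binding was not measured.

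The wider pathway was read through lists of genes. In set 180, 12.0% of all genes tested rose and 10.9% fell. Of 14 tested genes that IL-1 receptor signalling is known to induce, 8 rose and 0 fell, with a median log2 fold change of 0.83. They included Sod2, a mitochondrial superoxide dismutase (1.40 ± 0.08, adjusted p = 4.23e-20), Lcn2, an iron-sequestering neutrophil and epithelial protein (2.57 ± 0.23, adjusted p = 2.41e-12), Zc3h12a, a ribonuclease that destroys cytokine transcripts (1.09 ± 0.11, adjusted p = 2.16e-11), and the neutrophil chemokine Cxcl6 (3.16 ± 0.35, adjusted p = 9.31e-10). The 6 not called were Ccl20 (0.86 ± 0.38), Ptgs2 (0.80 ± 0.32), Il23a (0.45 ± 0.21), Tnfaip3 (0.03 ± 0.11), Icam1 (-0.02 ± 0.05) and Nfkbia (-0.56 ± 0.24). Il6, Csf3 and Saa3 of the list were not tested. The same list had 8 called higher in set 022, 8 in set 045, 6 in set 090 and 0 in set 011, with 0 lower in each. Of all genes, 5.18%, 3.32%, 6.82% and 0.0250% rose in these sets. Lcn2 had 75.4 ± 6.86 CPM in MWCNT_180 (SD, n = 5) and 12.7 ± 3.78 CPM in air_180 (SD, n = 6). Other signals than IL-1 also induce these genes.

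Among 8 tested receptors, decoys and other ligands of the family, 2 rose in set 180 and 0 fell, against 12.0% and 10.9% of all genes. Il1r2, the decoy receptor that binds IL-1 without signalling, had 10.9 ± 2.31 CPM in MWCNT_180 (SD, n = 5) and 2.72 ± 0.63 CPM in air_180 (SD, n = 6), with a log2 fold change of 2.0 ± 0.20 (adjusted p = 6.02e-11). It also rose in set 090 (1.99 ± 0.22, adjusted p = 2.16e-09), set 045 (1.14 ± 0.26, adjusted p = 0.00324) and set 022 (1.01 ± 0.20, adjusted p = 4.25e-04). The IL-18 receptor chain Il18r1 rose in set 180 (0.48 ± 0.18, adjusted p = 0.0461) and did not pass in the other sets.

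In set 180, 12.0% of all genes rose and 10.9% fell. Of the 16 tested genes that carry the signal inside the cell, 3 rose there and 0 fell. These were Myd88, the adaptor that the receptor recruits (0.28 ± 0.06, adjusted p = 1.79e-04), the kinase Irak1 (0.16 ± 0.04, adjusted p = 0.00519) and the NF-κB subunit Nfkb1 (0.14 ± 0.05, adjusted p = 0.0244). The median of that list was 0.04. Of 19 other inflammasome and pyroptosis genes, 5 rose and 1 fell, with a median of 0.18. The 4 of smallest adjusted p were Txnip, a thioredoxin-binding protein that also answers to glucose (-0.34 ± 0.08, adjusted p = 0.00212), Casp4, the caspase of the non-canonical inflammasome (0.32 ± 0.08, adjusted p = 0.00346), Cd274, which encodes the T-cell inhibitory ligand PD-L1 and is not an inflammasome component (0.36 ± 0.10, adjusted p = 0.00379), and the sensor Nlrp12 (0.62 ± 0.17, adjusted p = 0.0052). Gsdmd, which encodes the pore that releases IL-1β, was at 0.02 ± 0.05.

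Among 6 tested genes listed for secretion and processing, 1 rose in set 180 and 0 fell, against 12.0% and 10.9% of all genes. It was Tmem106a (0.26 ± 0.08, adjusted p = 0.0191), which encodes no protease and is not an established factor of IL-1 secretion. The 5 proteases tested, Capn1, Capn2, Gzmb, Mmp9 and Prtn3, were not called. Elane, Ctsg and Cma1 were not tested. Among 10 tested genes of a list of type 2 genes linked to IL-33 and ST2, 1 rose and 0 fell, against the same shares. It was Il13ra1, a receptor chain for IL-13 (0.21 ± 0.08, adjusted p = 0.0392). Il4, Il5, Il13, Il9, Il7r, Il4ra and Il25 of this list were not tested, so the counts do not cover those cytokines. In sets 090, 045, 022 and 011 the type 2 list had 1, 0, 0 and 0 calls, all higher. Of all genes, 6.82%, 3.32%, 5.18% and 0.0250% rose in these sets.

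**Figure D4:**
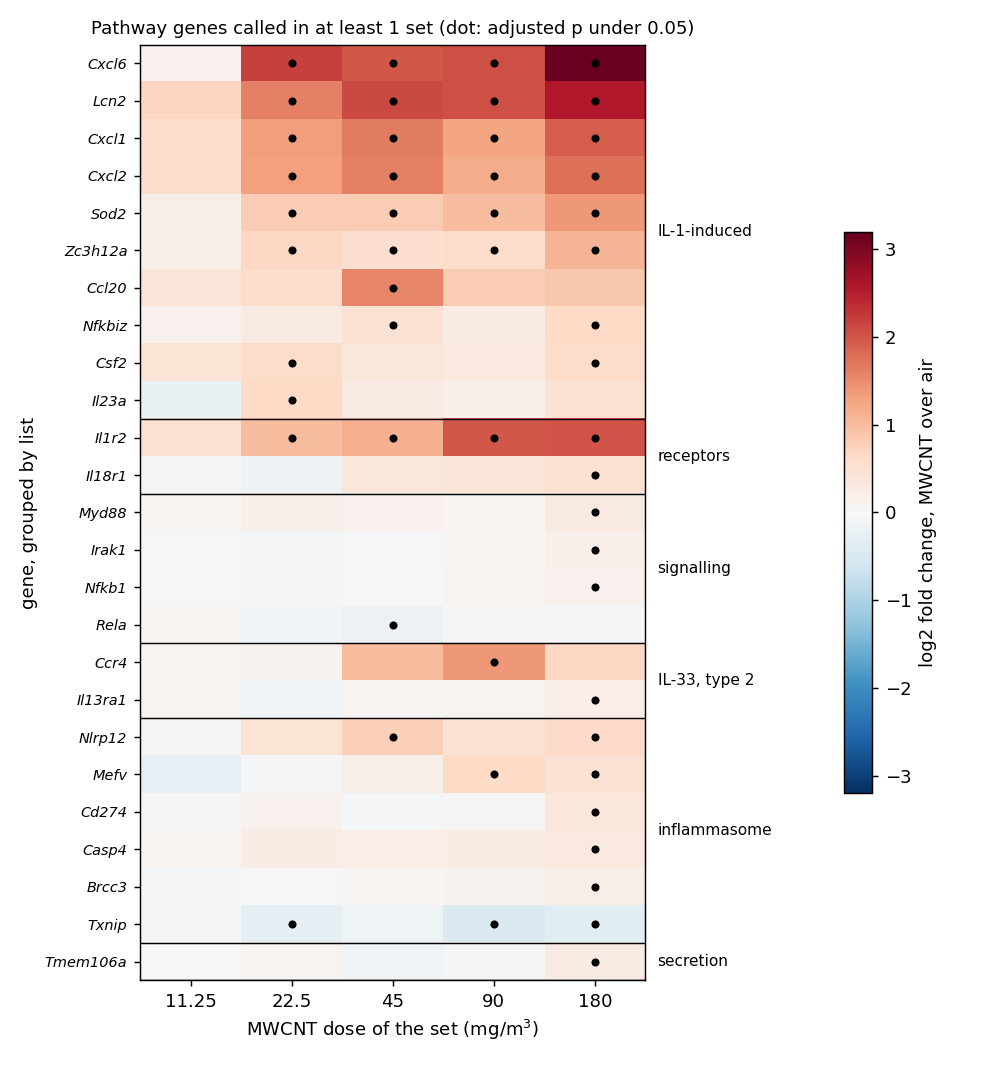
Log2 fold change of MWCNT over air (colour) of the 25 listed pathway genes, of 73 tested, that were called in at least 1 set, by the dose of the set (columns, mg/m3), grouped by list. Dots mark an adjusted p under 0.05. Sod2, Lcn2, Zc3h12a, Cxcl1, Cxcl2, Cxcl6 and Il1r2 carry dots at every dose but 11.25 mg/m3.

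Markers of cell types that make or receive these cytokines moved in the same comparisons. In bulk lung RNA, more or fewer cells of a type and more or less RNA per cell cannot be told apart. Of 10 tested neutrophil markers, 7 rose in set 180 and 0 fell, where 12.0% of all genes rose and 10.9% fell. Summed over the list, they took 363 to 468 CPM in MWCNT_180 and 178 to 296 CPM in air_180. The sums were 299 to 337 CPM in MWCNT_090 and 175 to 279 CPM in air_090, 253 to 347 CPM in MWCNT_045 and 193 to 221 CPM in air_045, 257 to 363 CPM in MWCNT_022 and 172 to 238 CPM in air_022, and 189 to 248 CPM in MWCNT_011 and 182 to 240 CPM in air_011. Thus the neutrophil sums were apart in every set but 011. Of all single genes, 7.80%, 8.82%, 9.23% and 2.15% had every MWCNT library above the highest air library in sets 180, 090, 045 and 022. The sum weighs the most abundant markers most, S100a9 first, with a mean of 80.5 CPM over the 53 libraries. Only 4, 1, 2 and 0 of the 10 markers were called higher in sets 090, 045, 022 and 011, and 0 lower. Of all genes, 6.82%, 3.32%, 5.18% and 0.0250% were called higher in these sets. No neutrophil marker was at 0 throughout a set. Of 9 tested macrophage markers, 5 rose and 2 fell in set 180 (663 to 706 CPM in MWCNT_180 and 469 to 741 CPM in air_180). Of 7 monocyte markers 4 rose and 1 fell (22000 to 24600 CPM in MWCNT_180 and 15900 to 24400 CPM in air_180). Almost all of that monocyte sum was Lyz2, with a mean of 18800 CPM over the 53 libraries, where no other marker of the list passed 279 CPM. The monocyte range therefore describes Lyz2 rather than the list. The part of these cell types in the rise of Il1b, Il1rn and Nlrp3 was not tested.

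The fall of Il33 in set 180 came with lower endothelial and alveolar type 1 markers, where 10.9% of all genes fell and 12.0% rose. Of 9 tested endothelial markers, 6 fell and 0 rose, with 4270 to 4730 CPM in MWCNT_180 and 4900 to 5520 CPM in air_180. Of 7 markers of alveolar type 1 cells, the flat cells of gas exchange, 3 fell and 0 rose, with 6600 to 6740 CPM in MWCNT_180 and 7660 to 8360 CPM in air_180. Of 8 alveolar type 2 markers 3 rose and 0 fell, with 29800 to 31600 CPM in MWCNT_180 and 22600 to 29000 CPM in air_180. Of 6 club and ciliated cell markers of the airways, 3 fell and 2 rose, with 3810 to 4680 CPM in MWCNT_180 and 5420 to 8430 CPM in air_180. Most of that sum was Scgb1a1, with a mean of 5410 CPM over the 53 libraries. In set 045, where Il33 was also below the air range, 3 endothelial markers fell (4380 to 5120 CPM in MWCNT_045 and 5110 to 5210 CPM in air_045). In set 090, where Il33 overlapped the air range, 4 endothelial and 1 alveolar type 1 marker fell (endothelial sums of 4670 to 5290 CPM in MWCNT_090 and 5010 to 5700 CPM in air_090). Alveolar type 1 sums were apart there, at 6820 to 7060 CPM in MWCNT_090 and 7190 to 8110 CPM in air_090. Club and ciliated sums were also below air without overlap in set 090 (4370 to 5400 against 6040 to 7740 CPM) and set 045 (4770 to 6100 against 6660 to 7210 CPM). They overlapped in sets 022 and 011. Of these markers 2 rose and 1 fell in set 090, and 2 rose and 0 fell in set 045. Of all genes, 6.82% and 3.32% rose in these sets. In set 022, which also overlapped, 2 endothelial markers fell (4190 to 5170 CPM in MWCNT_022 and 4330 to 5470 CPM in air_022). Of the alveolar type 2 markers, 1 fell in set 090 and 1 in set 022. Of all genes, 4.28%, 2.09% and 1.62% fell in sets 090, 045 and 022. In set 011 none of these cell type lists had a call. Whether these cell types account for the values of Il33 was not tested.

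Within groups, rats also varied, and the genes whose deviations from the group means went most closely with each member are given as a description over 53 libraries, which are all of lung and differ in depth. For Il1b they were Coro1a, S100a8 and Ptprcap (r = 0.786, 0.758 and 0.734), genes of leukocytes. For Il1rn they were Scimp, Bcl2a1 and Ccl9 (0.782, 0.767 and 0.76). For Il18 they were Hexa, Ctsb and Lgals3 (0.883, 0.882 and 0.872), lysosomal enzymes and a macrophage lectin. Il33 went with Apln, Asic1 and Aplnr (0.716, 0.706 and 0.701), which include the peptide apelin and its receptor. Without the libraries that stood apart, Il1b with Coro1a was at 0.738, Il1rn with Scimp at 0.809, Il18 with Hexa at 0.871 and Il33 with Apln at 0.717.

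Il1a had lower values, with Icam1, Cxcl6 and Zc3h12d at 0.573, 0.572 and 0.565. For the receptors, Il1r1 went with Atp2b1, Zc3h11a and Phf8 (0.82, 0.806 and 0.79) and Il1rl1 with Hunk, Tlr3 and Ppp1r10 (0.653, 0.631 and 0.618). Nlrp3 went with Arhgap17, Pik3r5 and Ap2a1 (0.753, 0.735 and 0.731), Casp1 with the proteasome activators Psme1 and Psme2 and with B2m (0.878, 0.867 and 0.868), and Pycard with Rpl11, Aes and Rpl27a (0.856, 0.853 and 0.851). Several of these leaned on the pair of libraries. Without it, Nlrp3 with Pik3r5 was at 0.403, Casp1 with Psme1 at 0.718 and Pycard with Rpl11 at 0.662. Between members, Casp1 and Pycard were at 0.746 with and 0.434 without the pair, Il18 and Il1rn at 0.629 and 0.618, Il18 and Il33 at -0.496 and -0.575, and Il1b and Il1rl1 at -0.575 and -0.498.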

How the data were processed

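Raw counts of 60 libraries, 1 row per gene symbol, were deposited by the authors, who made them with bcl2fastq 2.19, Trimmomatic 0.35, HISAT2 2.1.0, Cufflinks, SAMtools 1.8 and HTSeq 0.11.2, per the submitters' processing notes. The genome build, annotation and strand setting of the counting were not given in the sources used here. Members were found by symbol. Per the labels' protocols, libraries were stranded poly(A) mRNA libraries with 12 cycles of PCR, without molecular identifiers, so counting error is a lower limit on uncertainty.

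Counts of 53 libraries, those without the outlier label, were analysed with edgeR 4.0.16 in R 4.3.3. Rows passing filterByExpr with a minimum count of 10 (15995 of 30045, with 99.932% of counts) were scaled by TMM and fitted in 1 quasi-likelihood model of 10 groups. P-values were adjusted over all 15995 genes, and a gene was called under 0.05. The SE is the log2 fold change divided by the square root of F. Deviations used log2 CPM with a prior count of 2. Rats are the replicates.

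The members, lists and tests were chosen with earlier results of these data known. All 10 members are described, with up to 4 called genes per list by smallest adjusted p in set 180 and the 3 genes most like each member. A few others were chosen after their values were seen. These were Gsdmd, Cxcl1, Cxcl2, Lyz2, the uncalled genes of the IL-1-induced list and the uncalled proteases. The procedure was also run on simulated data in which 200 genes were changed. Every planted change was larger than those of Nlrp3, Il1a, Il1r1 and Il33 in set 180, so changes of that size were not covered. DESeq2 1.42.0 and limma 3.58.1 were alternatives. Promoters are from RefSeq (GRCr8).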

Additional observations from a re-analysis of the deposited data

Results flagged for a closer look

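The effect of MWCNT on Il1rn differed among the 5 sets (adjusted p = 2.6e-06), and its effect in set 022 exceeded that in set 011 by 0.60 log2 units. Nlrp3 also differed among the sets (adjusted p = 0.0477). The effect in set 180 minus that in set 011 was 1.10 for Il1rn, 0.80 for Il1b, 0.57 for Nlrp3 and -0.29 for Il33, each past the threshold in a test of the difference.

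Single rats lay far from the rest of their group in 10 of 90 member and group pairs. The share over all genes was not computed, so the count says nothing particular of the members. In the libraries that stood apart the flagged values were Casp1 (97.3 CPM) and Pycard (38.3 CPM) in MWCNT_022 replicate 5, and Casp1 (93 CPM), Pycard (30.9 CPM) and Nlrp3 (12.2 CPM) in air_022 replicate 2. The others were Il1a in MWCNT_090 replicate 3 (20 CPM, next 16.8 CPM), Il1r1 in MWCNT_090 replicate 4 (133 CPM, next 137 CPM), Il33 in MWCNT_011 replicate 3 (458 CPM, next 434 CPM), Il1b in air_180 replicate 3 (33.6 CPM, next 23.5 CPM) and Il33 in air_180 replicate 6 (395 CPM, next 448 CPM).

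Libraries with the outlier label entered no comparison, and some lay above the highest analysed air library of their set. MWCNT_180 replicate 1 had 16.7 CPM of Il1a, 46.9 of Il1b, 90.8 of Il1rn, 157.5 of Il1r1 and 26.4 of Nlrp3. Among air libraries, air_045 replicate 3 had 44.7 CPM of Il1b, 53.6 of Il18, 62.4 of Il1rn, 103 of Casp1 and 45.7 of Pycard, with Il1b and Il1rn above every analysed MWCNT_045 rat (at most 41.1 and 58.6 CPM). Air_045 replicate 5 had 262 CPM of Il1r1, beside 205000 CPM of liver markers, with alveolar type 2 markers at 0.0113% of counts, and air_045 replicate 6 had 40.5 CPM of Il18 and 15.3 CPM of Il1rl1.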

How the results depend on the processing

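No paired analysis was possible because the replicate numbers follow accession order and tie no MWCNT rat to an air rat. Il1rn in sets 022, 090 and 180 and Il1b in set 180 kept their direction and call under every alternative run.

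Using all 60 libraries, the outlier-labelled ones included, moved most counts of members called. Of the 7 added, air_045 replicate 5 and MWCNT_090 replicates 5 and 6 had 205000 to 236000 CPM of liver markers and at most 416 CPM of alveolar type 2 markers. There were 1 higher in set 022, 0 higher and 1 lower in set 045, 1 higher and 1 lower in set 090, 2 higher and 0 lower in set 180, 1 higher and 0 lower for the slope, 0 for set 022 minus set 011, 2 for set 090 minus set 045, 1 higher and 0 lower for set 180 minus set 011, and 1 among air groups. In set 045, with 3 air rats, 0 members were called higher with 57 libraries or no filter, 2 with DESeq2 size factors, the stricter filter, DESeq2, limma voom, the set fitted alone or 51 libraries, and 3 against all air rats, while 1 was lower by DESeq2, limma voom, the set alone or all air rats. In set 022, 1 was higher when fitted alone and 1 lower against all air rats. In set 090, 1 was lower by limma voom or fitted alone. Without set 011, or without set 180, 1 slope was called higher and 0 lower. The difference among sets had 1 call with no filter or without set 011, 090 or 180, and 5 by limma voom or without set 022, and limma voom called 2 among air groups. Shares of all genes called under each setting are not given here. These counts therefore do not show whether the members moved more than other genes. The cause of these changes was not tested, beyond fewer or more libraries where the setting says so. Settings with 51 libraries, and all but the planned settings for differences between sets and air groups, were chosen after seeing the data.

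Leaving out 1 library at a time gave 2 to 3 members higher in set 022, 0 to 1 in set 045, 2 to 3 in set 090, 4 to 5 in set 180, 3 to 4 for the slope, 2 to 4 for set 180 minus set 011, 1 to 3 among sets and 0 to 1 among air groups. Here too, shares of all genes are not given.

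Directions turned almost only where neither value was called. Against all air rats, log2 fold changes were -0.019 for Il33, 0.10 for Il1rn, 0.035 for Il1r1 and 3e-04 for Nlrp3 in set 011, 0.079 for Casp1 in set 022, and 0.0022 for Il1r1 and 0.020 for Pycard in set 045. With all 60 libraries they were 0.035 for Il33 in set 045, -0.22 for Il1rl1, -0.031 for Nlrp3 (called in the 53 libraries) and -0.18 for Pycard in set 090, and -0.022 for the slope of Il1rl1. With 57 libraries Il1r1 in set 045 was 0.039, and without set 011 the slope of Pycard was -0.0048. Leaving out 1 library gave ranges across 0 for Il18 (-0.0855 to 0.0407) and Il33 (-0.0048 to 0.051) in set 011. In set 022 they were -0.094 to 0.0022 for Il1r1, -0.054 to 0.078 for Il1rl1, -0.053 to 0.12 for Nlrp3, -0.13 to 0.058 for Casp1 and -0.065 to 0.25 for Pycard. They were -0.12 to 0.0097 for Casp1 and -0.076 to 0.046 for Pycard in set 045, -0.20 to 0.0033 for Il18 and -0.011 to 0.15 for Pycard in set 180, and -0.0155 to 0.0034 for the slope of Casp1.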
